A study of Mus musculus with 8 samples.

Results

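Immediate early genes are transcribed within minutes of a stimulus without a need for new protein, and the 10 described here were Fos, Fosb, Jun, Junb, Jund, Egr1, Atf3, Ier2, Ier3 and Dusp1. They were taken by gene name from the array files, and all 10 had at least 1 probe on both array designs, among 49826 and 34761 gene and transcript names on the first and the second slide. Gene expression was measured on 8 single-colour Agilent arrays in 4 groups of 2 arrays. Lin- BM cells (arrays L3 and L4) were lineage-negative bone marrow cells selected with magnetic beads from young adult female mice of the eGFP line C57Bl6/J-Tg(UBCGFP) 30Scha/J, whose reporter is driven by the ubiquitin C promoter. BM-derived hepatocytes (B1 and B2 from 1 month, G1 and G3 from 5 months) were collected after such donor cells had been given through the tail vein to male hemophilia A mice with the F8tm1Kaz allele, whose livers had been injured with acetaminophen. The liver was digested with collagenase by a perfusion in 2 steps, hepatocytes were spun down, and eGFP-positive cells were sorted. The recipients kept their own liver and blood cells, and the sorted cells were checked by staining for albumin. Primary hepatocytes (H2 and H4) served as the positive control, and neither their strain nor whether they passed the sorter is given in the sources used here. The array data stem from 2 experiments, each made with a pool of cells from 3 mice, so the spread between 2 arrays is one between pools and not between animals. In bulk RNA of this kind, fewer cells of a type and less RNA per cell cannot be told apart.

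As background, Fos and Jun family proteins pair to form the transcription factor AP-1, while Egr1 and Atf3 are DNA-binding factors that are induced alongside them. Induction runs through kinases of the MAP kinase and stress kinase pathways to factors already sitting on the promoters, such as serum response factor with its ETS partners and CREB, and it is ended by unstable mRNAs and by induced inhibitors, of which the phosphatase Dusp1 is one. In the liver these genes are known to be switched on after partial hepatectomy and toxic injury, and also by perfusion with collagenase and by the handling of cells.

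L3, L4, B1 and B2 lay on the first slide and H2, H4, G1 and G3 on the second, which carried another array design, so slide, design and group cannot be told apart in a comparison across slides. Values are background-subtracted signals as the scanner software gives them, or log2 signals from which the 75th percentile of the array was subtracted, called scaled log2 signals here. Of the spots of an array, 47.7% to 58.6% were well above background, and the 75th percentile of the signal was 75.5 and 89.5 on the 1-month arrays against 122.2 to 193.4 on the others. All 8 hepatocyte markers (Alb, Ttr and others) were well above background on the 6 hepatocyte arrays and 3 of 8 on the Lin- BM arrays. All 8 marrow progenitor markers were well above it on both Lin- BM arrays. Of these 8, 6 were also well above it on B1, on B2 and on G3, 7 on G1, 4 on H2 and 3 on H4. Their summed signal was 152988 and 131266 on L3 and L4, against 179.4 to 811.5 on the hepatocyte arrays. The members were covered by 14 probes on the first slide and 10 on the second, and each was well above background on each of its 4 arrays. Fos, Jund, Egr1, Atf3, Ier3 and Dusp1 had a probe of the same sequence on both designs. Fosb, Jun, Junb and Ier2 did not, so their levels were not compared across slides.

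Promoters of 8 of the 10 genes matched an entry of the RefSeq table for GRCm38.p6, and the 250 bases before the start site are shown for Fos, Atf3 and Junb, whose signals differed most between the 1-month arrays among these 8, and for Dusp1, which differed least. Capitals mark the CRE half-site TGACG on either strand, to which CREB and ATF factors bind, and the TATA sequence TATAA on the strand of the gene. The full CRE TGACGTCA contains the half-site, and it is 1 of the forms of the Jun-type sequence TGACNTCA.
Fos, chr12:85473640-85473889, plus strand: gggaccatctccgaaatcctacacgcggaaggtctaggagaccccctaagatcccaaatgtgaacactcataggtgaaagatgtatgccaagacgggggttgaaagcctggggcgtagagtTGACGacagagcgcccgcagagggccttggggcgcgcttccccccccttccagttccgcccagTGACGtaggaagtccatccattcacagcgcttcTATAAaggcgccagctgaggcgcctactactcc
Atf3, chr1:191183334-191183583, minus strand: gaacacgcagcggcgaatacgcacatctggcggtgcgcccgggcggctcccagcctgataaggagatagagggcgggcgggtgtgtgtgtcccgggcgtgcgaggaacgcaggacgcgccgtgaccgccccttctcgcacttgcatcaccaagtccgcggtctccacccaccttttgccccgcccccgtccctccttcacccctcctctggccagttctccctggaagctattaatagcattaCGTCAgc
Junb, chr8:84978749-84978998, minus strand: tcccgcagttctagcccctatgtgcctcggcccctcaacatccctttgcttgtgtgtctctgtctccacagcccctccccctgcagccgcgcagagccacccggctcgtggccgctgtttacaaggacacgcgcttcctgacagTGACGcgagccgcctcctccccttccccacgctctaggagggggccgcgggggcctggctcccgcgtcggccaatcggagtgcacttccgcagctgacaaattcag
Dusp1, chr17:26508473-26508722, minus strand: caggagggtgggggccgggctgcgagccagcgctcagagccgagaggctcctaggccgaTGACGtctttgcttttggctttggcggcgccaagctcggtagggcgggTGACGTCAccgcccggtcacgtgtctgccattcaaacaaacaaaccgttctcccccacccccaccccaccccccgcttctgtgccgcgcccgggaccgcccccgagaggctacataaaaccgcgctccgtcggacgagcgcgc
Dusp1 held the full CRE, which 1.55% of all 32851 promoters of this length held. The half-site was found in 5 of the 8 windows (Fos, Fosb, Junb, Atf3 and Dusp1), with 2 matches in Fos and 3 in Dusp1, counting both strands, against 17.8% of all promoters. TGACNTCA was found in Jun and Dusp1 and in 7.49% of all promoters, and TATAA in Fos and Ier3 and in 16% of them. The AP-1 sequence TGANTCA, held by 6.75% of all promoters, and the CArG box of serum response factor, held by 1.47%, were found in 0 of the 8 windows. Both strands were searched for these except TATAA, and a window without a match says only that these letters do not stand in these 250 bases. On GRCm38 Fos lies on chromosome 12 (85473890 to 85477274), Atf3 on chromosome 1 (191170296 to 191183333), Junb on chromosome 8 (84976909 to 84978748) and Dusp1 on chromosome 17 (26505591 to 26508472). Jun lies on chromosome 4 (95049036 to 95052222), Fosb on chromosome 7 (19302696 to 19310118), Jund and Ier2 on chromosome 8 (70697739 to 70700616 and 84661331 to 84662852) and Ier3 on chromosome 17 (35821713 to 35822911).

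The first result concerns the 1-month BM-derived hepatocytes, whose arrays B1 and B2 stood far apart for these genes. The Fos probe, for the AP-1 subunit that needs a Jun partner, gave a signal of 1881 on B1 and 22.62 on B2, and 8799 and 2342 on L3 and L4. B1 thus lay near the Lin- BM cells and B2 far below them. In scaled log2 signal Fos was 6.62 higher on B1 than on B2, which is 98.4-fold and rank 4 of 28525 genes. Egr1, a zinc finger factor, had signals of 9320 on B1 and 127.7 on B2, against 5449 and 2939 on L3 and L4. Its gap was 6.43 (86.4-fold, rank 5), and B1 lay above both Lin- BM arrays. Atf3, a stress-induced member of the ATF family, had signals of 1272 on B1 and 18.84 on B2, against 367.1 and 152.2 on L3 and L4. Its gap was 6.32 (79.9-fold, rank 6), again with B1 above and B2 below both Lin- BM arrays. The ranks 1 to 3 were held by Fam71a, S100g and Cxcl1, which are named here because of their place in this order.

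The other members differed in the same direction. The AP-1 subunits Junb and Jun had gaps of 3.42 and 2.76 between B1 and B2, with signals of 15394 and 1702 for Junb and of 1746 and 305.7 for Jun. A second Junb probe gave 14011 and 1898. Fosb, which like Fos pairs with Jun proteins, had signals of 230.3 and 77.9 and a gap of 1.81. Jund, the Jun protein usually present without a stimulus, had signals of 17165 and 8493 and a gap of 1.26. Ier3, a short-lived protein linked to cell survival, had signals of 208.6 and 26.77 and a gap of 3.20, and Ier2, a nuclear protein of unsettled function, had signals of 7324 and 1248 and a gap of 2.79. Dusp1, which removes phosphate from MAP kinases, had the smallest gap among the 10, 0.86 with signals of 2831 and 1849. The 10 gaps thus ran from 1.81-fold for Dusp1 to 98.4-fold for Fos, and none was in favour of B2. In all, 9 of 10 members were over 2-fold higher on B1 than on B2, against 3.92% of all genes, with 1 array on each side and hence no test. The count was 9 also with normexp background correction, quantile normalization, the values processed by the authors, no filter on dim probes and the mean of the probes of a gene, 5 settings chosen after these values were seen, against 0.55% to 5.38% of all genes. With normexp, which compresses dim signals, the gaps of Fos, Egr1 and Atf3 were 4.81, 5.72 and 4.33.

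**Figure D1:**
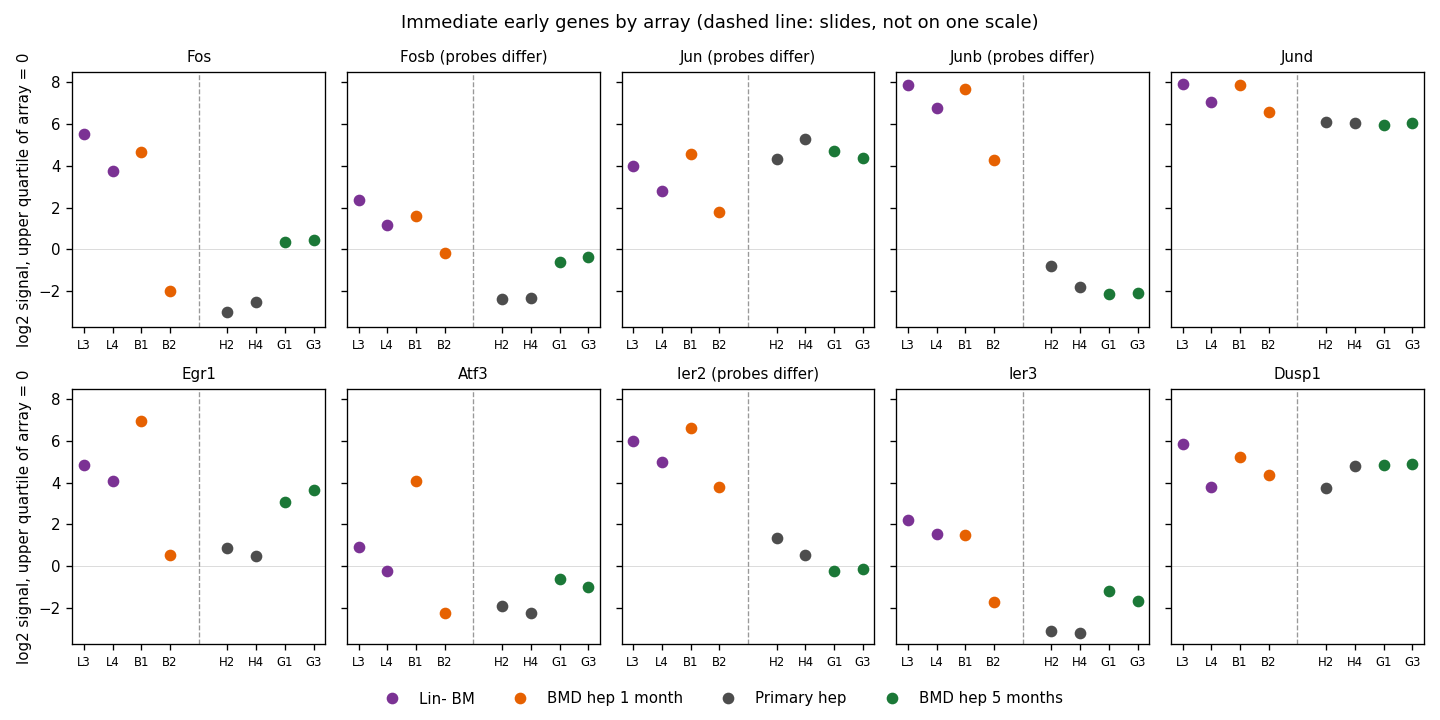
Scaled log2 signal (vertical axis, upper quartile of each array at 0) of the 10 genes on each array, 1 point per array and 1 panel per gene, for the brightest probe, with the slides separated by a dashed line. On the first slide B1 lies above B2 in each panel, by 6.62 for Fos and 0.86 for Dusp1, and on the second slide both 5-month arrays lie above both primary hepatocyte arrays for Fos, Fosb, Egr1, Atf3, Ier3 and, narrowly, Dusp1.

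In the other groups the gaps were smaller for 9 of 10 members, all except Dusp1. L3 was above L4 for all 10 members, by 0.64 (Ier3) to 2.01 (Dusp1), and 6 of 10 were over 2-fold higher, against 6.26% of all genes. Dusp1 signals were 10906 and 2469 on these arrays, and Fos followed with a gap of 1.78. The order of the members was thus not that of the 1-month arrays, where Dusp1 came last. The 3 probes of Ier2 disagreed here, since 2 of them were brighter on L3 (12125 against 5592 and 9135 against 3769) and the dimmest was brighter on L4 (222.8 against 184). Between H2 and H4 the members spread from -1.03 (Dusp1) to 1.01 (Junb), and 2 of 10 differed by over 2-fold, against 15.1% of all genes. Between G1 and G3 they spread from -0.54 (Egr1) to 0.50 (Ier3), and 0 of 10 differed by over 2-fold, against 3.74% of all genes. Among the 4 pairs, the 1-month arrays lay farthest apart for 9 of 10 members, and H2 and H4 lay closer together than G1 and G3 for 5 of 10 (Fosb, Jund, Egr1, Atf3 and Ier3).

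**Figure D2:**
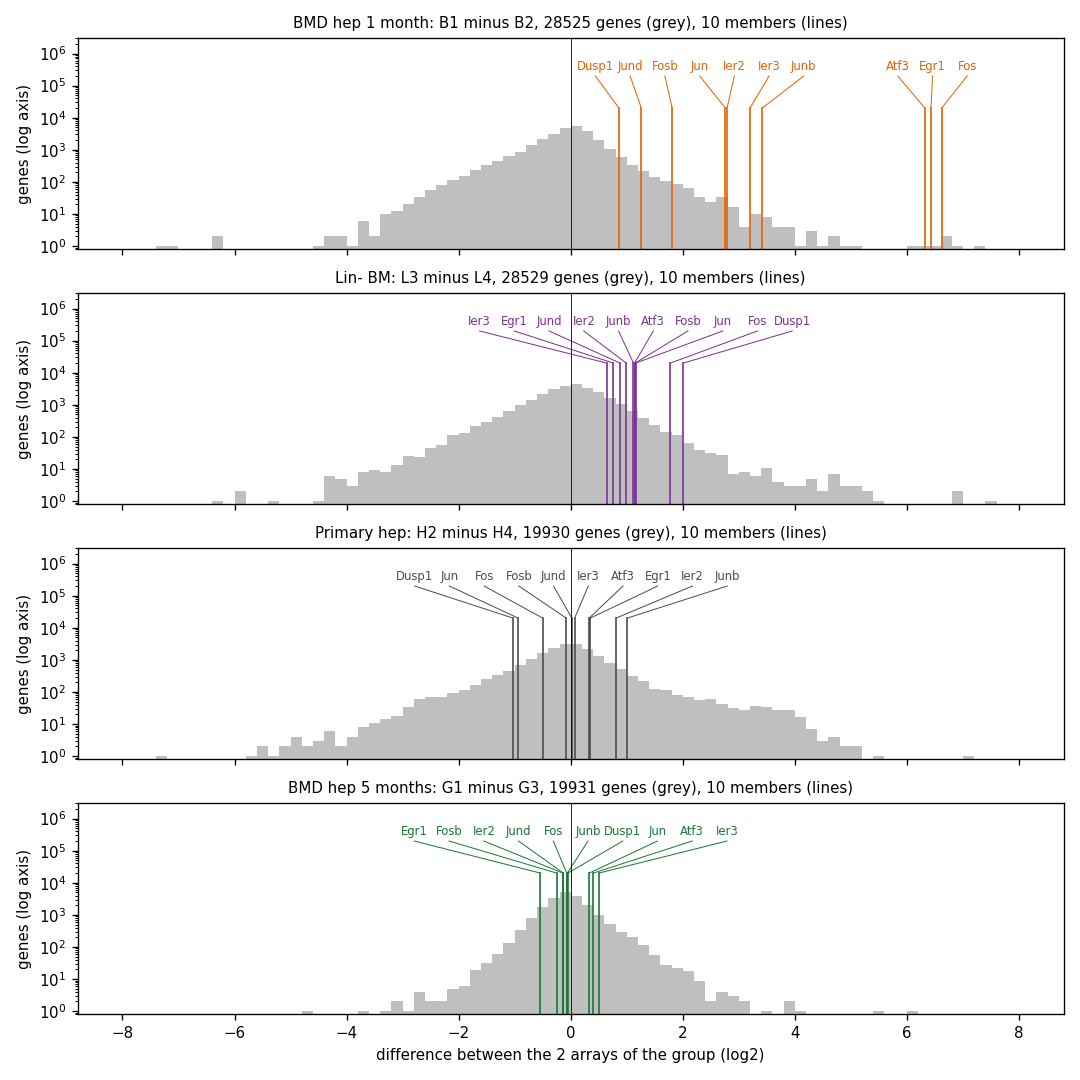
Difference in scaled log2 signal between the 2 arrays of a group (horizontal axis), as a histogram over all genes on a log count axis (grey) with the 10 members as labelled lines, 1 panel per group. In the 1-month group Fos, Egr1 and Atf3 lie at 6.32 and above, beyond nearly all genes, while in the 5-month group the members lie between -0.54 and 0.50.

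Related genes were then read on the 1-month arrays from lists of 11 to 22 genes each. Of all 28525 genes, 1118 were over 2-fold higher on B1 than on B2 and 2151 were over 2-fold lower. Of 19 other immediate early genes with a value, 12 were over 2-fold higher on B1 and 1 was over 2-fold lower, with a median gap of 1.31 against -0.01 over all genes. Csrnp1 and Btg2 had the largest gaps of this list, 3.72 and 3.59. Of 14 feedback inhibitors, 5 were over 2-fold higher and 1 lower (median 0.73), led by the cytokine signalling inhibitor Socs3 (4.94) and the NF-kB inhibitor Tnfaip3 (3.28). Of 11 AP-1 relatives and dimer partners, 3 were higher and 2 lower (median 0.13), with the small Maf protein Maff at 4.75 and Batf at -1.36. Of 16 upstream kinases and promoter factors, such as Mapk3 and Creb1, 1 was over 2-fold higher, Srf with a gap of 1.05, and the median was 0.07. Genes over 2-fold higher on B1 were thus more frequent among other immediate early genes and feedback inhibitors than among kinases and promoter factors. This describes 2 arrays and did not hold for every gene of these lists. Gaps were -0.06 for Nr4a1, 0.19 for Klf2, -0.18 for Dusp6 and -0.05 for Spry2. The lower ones were Ccn2 at -1.59 and Dusp4 at -1.61.

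**Figure D3:**
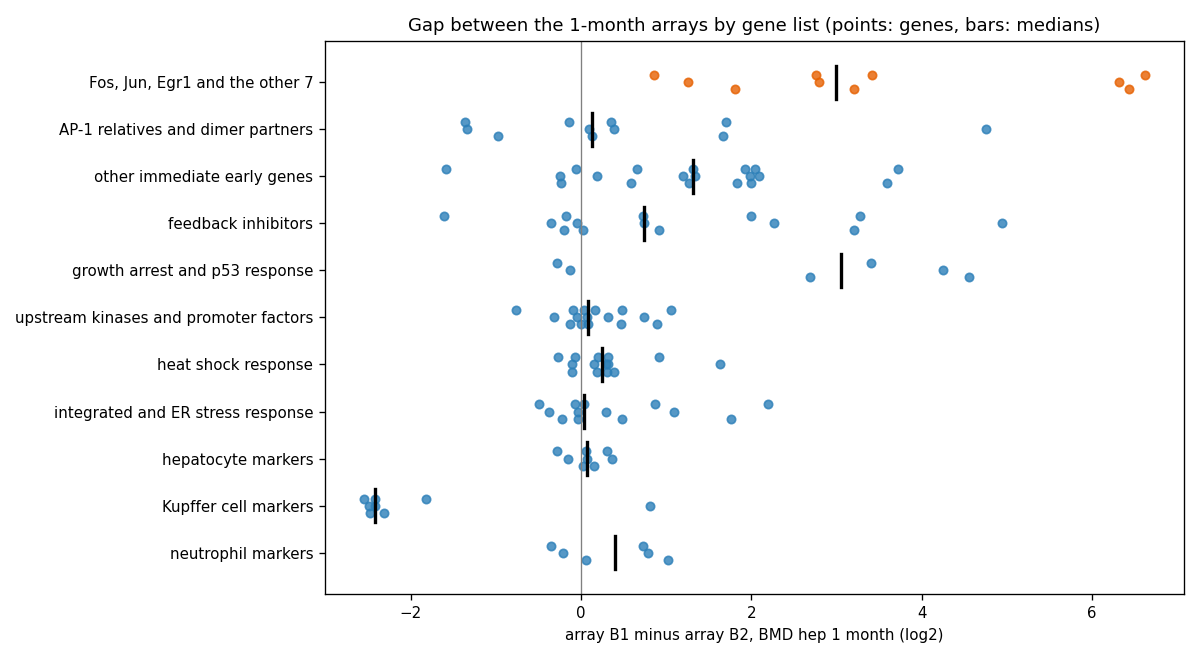
Difference in scaled log2 signal between the 1-month arrays B1 and B2 (horizontal axis) for each gene (points) of the gene lists (rows), with the median of each list as a bar. All 10 members lie above 0, from 0.86 to 6.62, the hepatocyte markers lie near 0, and 7 of 8 Kupffer cell markers lie below -1.

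Some markers of other cells also differed between B1 and B2, in both directions. Of all 28525 genes, 2151 were over 2-fold lower on B1 than on B2 and 1118 were over 2-fold higher. Of the 8 Kupffer cell markers, 7 were over 2-fold lower on B1 than on B2, with gaps down to -2.55 (C1qa), and Marco had a gap of 0.81. All 8 were well above background on both arrays, with a summed signal of 733.4 on B1 and 3722 on B2. Hepatocyte markers had gaps from -0.28 to 0.36, and 0 of 8 differed by over 2-fold. Over 2-fold higher on B1 were also 2 of 6 erythroid markers (Hba-a1 and Hbb-bt) and 1 of 8 marrow progenitor markers (Spi1), and over 2-fold lower were 2 of 8 progenitor markers (Ptprc at -2.18 and Runx1 at -1.21) and 2 of 5 stellate cell markers (Lrat and Reln), while 0 of 6 endothelial and 0 of 6 lymphocyte markers differed by that much. Of the neutrophil markers, 2 of 6 were well above background on each of B1 and B2, and 1, S100a9, was over 2-fold higher on B1 (1.02). Between L3 and L4, where the members also differed, 5 of 6 neutrophil markers were over 2-fold higher on L3 with a median of 3.52, as were 2 of 6 lymphocyte and 2 of 8 progenitor markers, and 3 of 5 stellate (median -1.44), 3 of 6 erythroid, 2 of 6 endothelial and 2 of 8 Kupffer cell markers were over 2-fold lower. Over all genes, 6.26% were over 2-fold higher on L3 than on L4, and the share over 2-fold lower was not counted. Of the neutrophil markers, 3 of the 4 that passed the filter were over 2-fold higher on G1 than on G3. In that pair 3.74% of all genes differed by over 2-fold in either direction, and 0 of 10 members did. The part of these cells in the gap of the members was not tested.

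The comparison of 1-month BM-derived hepatocytes with Lin- BM cells asks how far these genes left the level of the starting cells. By limma's moderated test on all genes of the slide, 0 of 10 members were called higher and 0 lower with limits of 0.05 on the adjusted p and of 0.6 on the size of the log2 change, while 28.8% of the 28535 genes tested were called higher and 26.5% lower. At an unadjusted p under 0.05 the count was 0 of 10 by limma. By the methods' t-test without adjustment it was also 0 of 10, against 12753 of 28535 genes. Changes ran from -3.29 (Fos, SE 2.20, adjusted p = 0.253 by limma) to 0.56 (Atf3, SE 2.06, adjusted p = 0.83). The standard errors of about 2 for Fos, Egr1 and Atf3 come with the distance between B1 and B2. Both 1-month arrays lay below both Lin- BM arrays for 1 of 10 members, Ier3, against 38.9% of all genes, and the other members overlapped. Which array stood for 1 month decided the picture. Without B1, 5 of 10 members were called lower than in Lin- BM cells by limma, Fos by -6.60 (adjusted p = 0.0136), Egr1 by -3.92 (adjusted p = 0.0127), Ier3 by -3.60 (adjusted p = 0.0129), Junb by -3.05 (adjusted p = 0.0302) and Atf3 by -2.60 (adjusted p = 0.0424), against 18.1% of all genes called lower in that fit. Without B2, 2 of 10 were called higher, Atf3 by 3.72 (adjusted p = 0.022) and Egr1 by 2.51 (adjusted p = 0.0306), against 16.9% of all genes. In these fits the lone 1-month array is assumed to vary like the Lin- BM arrays.

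Genes of the wider lists were called in both directions, against the same 28.8% and 26.5% of all genes, and their difference from the members was not tested. Of 19 other immediate early genes tested, 3 were called higher and 7 lower by limma (median change -1.87, all genes 0.07). The largest called changes were those of the orphan nuclear receptors Nr4a2 (-6.07, SE 0.38, well above background on 1 of 2 1-month arrays) and Nr4a1 (-3.71, SE 0.44), and, upwards, Ccn1, a secreted matrix protein (3.07, SE 0.78), and the pseudokinase Trib1 (2.41, SE 0.63). Of 14 feedback inhibitors, 3 were called higher and 4 lower, with the EGF receptor inhibitor Errfi1 at 6.93 (SE 0.35) and the mRNA decay factor Zfp36l1 at 1.51 (SE 0.39), and with the phosphatase Dusp2 at -8.52 (SE 0.56) and Spry2 at -4.11 (SE 0.39). Of 11 AP-1 relatives, 0 were called higher and 3 lower, led by Batf (-4.80, SE 0.54) and the AP-1 repressor Jdp2 (-3.07, SE 0.34). Of 16 kinases and promoter factors, 3 were called higher and 6 lower. Among these were the SRF coactivator Mrtfb (1.85, SE 0.34), Map2k2 (1.23, SE 0.37) and the kinase Rps6ka1 (-2.80, SE 0.39). Rps6ka5 was not well above background on either 1-month array and was at least 8.71-fold lower there, from the lowest signal well above background on each array. All these changes were called at the same limits.

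The comparison of 5-month BM-derived with primary hepatocytes asks whether cells that had spent months in the liver resembled the control. Fos read 159.8 and 140.8 on G1 and G3 and 17.84 and 22.52 on H2 and H4, each the mean of 10 spots of 1 probe whose log2 signals had an SD of 0.05 to 0.37 within an array. Both 5-month arrays were thus well above both controls, and the primary hepatocyte signals were near the dim end, where the lowest signals well above background were 6.97 and 7.95. The change was 3.15 (SE 0.26, n = 2 arrays per group, 8.88-fold, adjusted p = 0.0374 by limma), and Fos was the only member called, 1 of 10 higher and 0 of 10 lower. In the fit of all 4 groups on the shared probes, with or without slide as a block, the change was 3.19 and was not called (adjusted p = 0.549). That fit shares 1 spread over all groups, and the SD of Fos was 4.64 at 1 month. It was 0.02 at 5 months and 0.38 in primary hepatocytes, the groups compared here. Of all 19933 genes, 0.366% were called higher and 0.186% lower. With normexp background correction the change of Fos was 1.46 (adjusted p = 0.0264). Without G1 or without G3 it was 3.19 and 3.11 and was not called (adjusted p = 0.536 and 0.581), as were 0 of all 19933 genes in these fits, and without a filter on dim probes its adjusted p was 0.0901.

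The members next to Fos in size did not pass the test. Egr1 read 1046 and 1277 on G1 and G3 and 257.1 and 180.1 on H2 and H4, a change of 2.67 (SE 0.29, adjusted p = 0.0666 by limma). Fosb read 80.66 and 80.21 against 27.24 and 25.72, a change of 1.85 (SE 0.21, adjusted p = 0.0729). Ier3 read 54.67 and 32.39 against 16.56 and 14.06, a change of 1.71 (SE 0.26, adjusted p = 0.111). Atf3 read 80.59 and 51.29 against 37.44 and 26.53, a change of 1.27 (SE 0.26, adjusted p = 0.173). In each of these 4 genes both 5-month arrays lay above both primary hepatocyte arrays, without passing the limits. With normexp background correction, which compresses dim signals, the changes were 0.73 for Fosb, 0.52 for Ier3 and 0.54 for Atf3, none of them called. Egr1 had 2.33 with it and was called (adjusted p = 0.0227 by limma). By the methods' t-test without adjustment, these 4 and Fos were called higher, 5 of 10 members against 3.75% of all genes, and after Benjamini-Hochberg adjustment 0 members and 0 of all genes were.

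Of the remaining members, 4 had a change below 0 and Dusp1 one above it, and 0 of these 5 were called by limma, with 1, Ier2, at an unadjusted p under 0.05. Junb read 28.32 and 24.68 on G1 and G3 and 83.33 and 36.82 on H2 and H4, a change of -0.82 (SE 0.39, adjusted p = 0.449 by limma). These signals lay toward the dim end, and with normexp background correction the change was -0.34. Ier2 read 104.4 and 95.99 against 362 and 184.6, a change of -1.12 (SE 0.34, adjusted p = 0.289). Jun, with signals from 2122 to 4837, had a change of -0.26 (SE 0.39), and its groups overlapped. Jund, with signals from 6880 to 9628, had a change of -0.08 (SE 0.20), and its groups were barely parted, with 6.06 on both G3 and H4 in scaled log2 signal. Dusp1, with signals from 1927 to 3515, had a change of 0.56 (SE 0.40), and its groups were barely parted, with 4.80 on H4 and 4.82 on G1 in scaled log2 signal. Both 5-month arrays lay above both controls for 6 of 10 members, against 25.2% of all genes. They lay below them for 3 of 10 (Junb, Ier2 and, barely, Jund), against 22.7%. The count called moved with single arrays. Without H2, 5 of 10 were called higher, against 4.72% of all genes. Without H4, 4 were called higher and 2 lower, against 5.48% and 2.66%, and in these fits the lone primary hepatocyte array is assumed to vary like the 5-month arrays. Without G1 or G3, 0 of all genes were called, so the 0 members called there say nothing about the members.

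**Figure D4:**
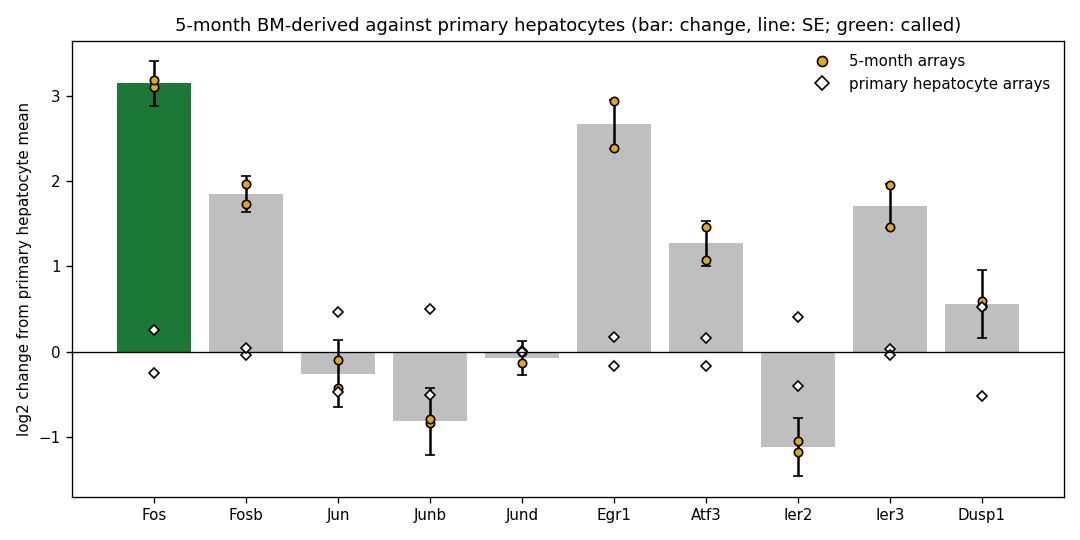
Change in scaled log2 signal from the mean of the primary hepatocytes to 5-month BM-derived hepatocytes for each member (bars, with the standard error of the fit as lines), with the 5-month arrays as circles and the primary hepatocyte arrays as diamonds. Fos, in green, was called at 3.15, and Fosb, Egr1, Atf3 and Ier3, in grey, lie between 1.27 and 2.67 with no overlap between the arrays of the groups.

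Of the wider lists, 1 gene was called in this comparison. Socs3, which inhibits cytokine signalling, was higher in 5-month BM-derived hepatocytes by 2.37 (SE 0.21, 5.17-fold, adjusted p = 0.0444 by limma), 1 of 14 feedback inhibitors. Of 17 other immediate early genes, 10 AP-1 relatives and 17 kinases and promoter factors, 0 were called by limma, with 3, 4 and 1 at an unadjusted p under 0.05 and medians of 0.51, 0.45 and 0.08 against 0.04 over all genes. The median of the 10 members was 0.92, and 6 of 10 were at an unadjusted p under 0.05 by limma. The share of all genes at that unadjusted limit was not counted for limma, here or in the other comparisons. Such counts thus have no background to be read against. Beside this, the summed scaled signal of the 8 Kupffer cell markers, each well above background, was 126 and 124 on G1 and G3 against 32.5 and 69.5 on H2 and H4. That of the 6 neutrophil markers was 75.4 and 15.4 against 13.1 and 24.8. Their part in the change of the members was not tested.

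Across slides, 6 members could be followed over the 4 groups by 1 probe each, with levels scaled over the shared probes. Fos was highest in Lin- BM cells (4.14 and 2.21), followed by 1 month (3.20 and -3.36), 5 months (-1.25 and -1.22) and primary hepatocytes (-4.70 and -4.16). Ier3 had the same order of means, 0.42 in Lin- BM cells, -1.55 at 1 month, -3.07 at 5 months and -4.82 in primary hepatocytes. Egr1 had it too, with 3.45 and 2.54 on the Lin- BM arrays, 5.51 and -0.87 at 1 month, 1.46 and 1.96 at 5 months, and -0.85 and -1.16 in primary hepatocytes. For Fos and Egr1 the 1-month arrays overlapped with both Lin- BM cells and 5 months, and for Ier3 array B1 was level with L4 (0.03 each) and B2 (-3.12) lay between the 5-month arrays. Of neighbours in these orders, 5 months and primary hepatocytes did not overlap. Atf3 had its highest mean at 1 month (-0.50, from 2.64 on B1 and -3.63 on B2), followed by Lin- BM cells (-1.08), 5 months (-2.46) and primary hepatocytes (-3.78). Jund was high everywhere, with 6.03 in Lin- BM cells, 5.79 at 1 month, 4.39 in primary hepatocytes and 4.35 at 5 months. Dusp1 varied least between groups, with means from 2.59 in primary hepatocytes to 3.20 at 5 months.

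**Figure D5:**
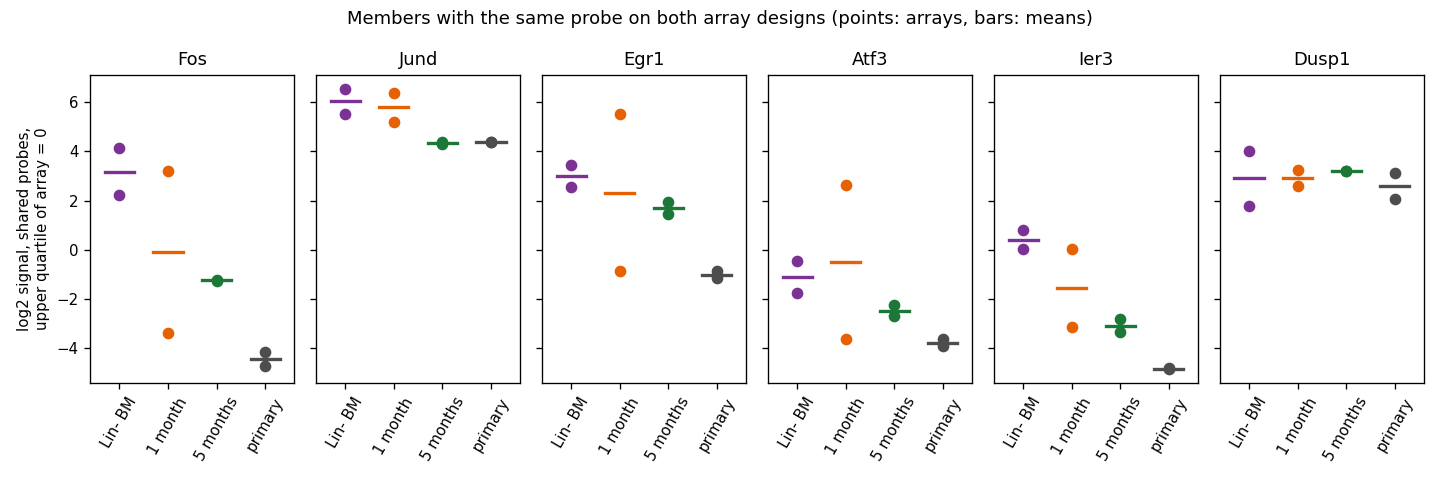
Scaled log2 signal (vertical axis) of the 6 members with the same probe on both designs in the 4 groups, with points for arrays and bars for group means. Fos, Egr1, Atf3 and Ier3 have their lowest means in primary hepatocytes (-4.43, -1.01, -3.78 and -4.82), and the 2 points of the 1-month group are far apart except for Jund and Dusp1.

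In primary hepatocytes against Lin- BM cells, 3 of 6 members were called lower by limma and 0 higher, against 38% and 29.2% of 9297 genes. Fos fell by 7.61 (SE 1.90, adjusted p = 0.011), Ier3 by 5.24 (SE 0.93, adjusted p = 0.00246) and Jund by 1.64 (SE 0.48, adjusted p = 0.0204). Egr1 and Atf3 had changes of -4.00 (SE 1.79) and -2.69 (SE 1.78) that were not called. In the comparisons across slides 1 spread is shared by all 4 groups, so it includes the distance between B1 and B2. For Egr1 the SD was 4.51 at 1 month, 0.64 in Lin- BM cells and 0.22 in primary hepatocytes. Without L3, 1 of 6 was called lower, against 34.3% of all genes, and without either primary hepatocyte array Jund was not. In 5-month hepatocytes against the same Lin- BM arrays, 2 of 6 were called lower and 0 higher, against 37.7% and 29.3% of all genes. These were Ier3 (-3.49, SE 0.93, adjusted p = 0.0144 by limma) and Jund (-1.68, SE 0.48, adjusted p = 0.0188), while Fos had a change of -4.42 (SE 1.90, adjusted p = 0.078) and was called with normexp background correction (-4.11, adjusted p = 0.0286). Without L3 or without G3, 0 of 6 were called, and without G1 1 was called lower, against 31.1% of all genes. Since 37.7% of all genes were called lower here, the count of 2 in 6 is near the background.

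In 1-month BM-derived against primary hepatocytes 0 of 6 members were called by limma, against 11.6% of genes called higher and 5.1% lower. At an unadjusted p under 0.05 the count was 2 of 6 by limma, Ier3 and Jund. It was 0 by the methods' t-test without adjustment, against 1786 of 9297 genes. Changes were 4.35 (SE 1.90) for Fos, 3.33 (SE 1.79) for Egr1, 3.28 (SE 1.78) for Atf3 and 3.28 (SE 0.93, adjusted p = 0.0581) for Ier3. Without B2, 4 of 6 were called higher, Fos by 7.63, Egr1 by 6.51, Atf3 by 6.41 and Ier3 by 4.85, each at an adjusted p of 0.0166 by limma, against 4.09% of all genes. In 5 months against 1 month 0 of 6 were called, against 5.78% of genes called higher and 11.1% lower. At an unadjusted p under 0.05 the count was 1 of 6 by limma, Jund. By the methods' t-test without adjustment it was 0, against 2294 of 9297 genes. Without B2, 4 of 6 were called lower at 5 months, Fos, Egr1, Atf3 and Ier3, against 3.38% of all genes, and without B1 1 of 6, Egr1, was called higher (2.57, adjusted p = 0.0371), against 2.4%. In every fit across slides that leaves out an array, the lone array of its group is assumed to vary like the other groups. The balance of called genes turned with the scaling, since 69.5% of those called for 1 month against primary hepatocytes and 34.1% of those for 5 months against 1 month were higher, but 49.5% and 53.3% with the values processed by the authors. For these comparisons the groups also differ in slide and array design, which cannot be told apart from the group.

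The genes whose pattern over the 8 arrays was most like that of a member were sought among 9289 genes with shared probes, by Pearson's r of the scaled log2 signal, as a description. For Fos these were Ier3 (r = 0.976), Hcar2 (0.969) and B430306N03Rik (0.966). For Egr1 they were Hcar2 (0.957), Atf3 (0.947) and Gm8894 (0.937), and for Atf3 they were Egr1 (0.947), Hcar2 (0.936) and Gm2453 (0.933). Members thus stood among the nearest genes of other members. For Dusp1 they were LOC100047102 (0.931), Map3k15 (0.910) and a transcript without a gene symbol (0.850), and no other member was among them. Arrays of a slide share their design and processing, which the r includes.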

How the data were processed

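Total RNA of 8 samples was labelled with Cy3 and hybridized to Agilent arrays of 2 designs. Per the file headers, Feature Extraction 11.5.1.1 gave each spot a mean intensity, a local background and the background-subtracted intensity used here, with designs annotated on mm9. The authors also deposited log2 values shifted to the 75th percentile of each array in GeneSpring GX, which equalled log2 of the intensities minus a constant of the array, within 0.02 for 99.8% of probes or more.

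Control spots and outlier spots were left out (6 to 152 outliers per array, 0 saturated spots), spots of a probe were averaged, and the 75th percentile of each array was subtracted. A probe was kept where some group had it well above background on both its arrays, and the brightest probe stood for a gene. Probe names were updated through RefSeq accessions, symbols and synonyms, and otherwise kept as the array gives them. Comparisons within a slide used all probes of the design (28535 and 19933 genes), and those across slides used probes of identical sequence (13991 sequences, 9297 genes) in 1 fit of the 4 groups. Groups were compared with limma 3.58.1 in R 4.3.3 (lmFit and eBayes) and p-values were adjusted by Benjamini-Hochberg over every gene in the fit, with limits for a call of 0.05 on the adjusted p and 0.6 on the log2 change. The fit was run on simulated data with known changes, as a check of its working. Detection was required only at a reduced spread, so this says nothing of its power on these arrays. An exact permutation test of 2 against 2 arrays cannot go below p = 0.33 and was not used. The number of arrays limits the precision. Tables were made with pandas 2.3.3 and numpy 2.4.6, and plots with matplotlib 3.10.9, in Python 3.11.15.

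The members and the gene lists were chosen with earlier results of these data known. Named were the 10 members, within a slide by their brightest probe and with only some of their further probes. Of each list, the 2 largest called changes in each direction within a slide were named. Genes most like a member were taken as the 3 with the highest r, for 4 members. Genes described by their gap between arrays B1 and B2 were named after their values were seen. Tried as alternatives were quantile normalization, normexp background correction (offset 50), the values processed by the authors, no filter, the mean of a gene's probes, shared probes, slide as a block, the methods' t-test and leaving out each array.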

Additional observations from a re-analysis of the deposited data

How the results depend on the processing

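No paired analysis was made, since the labels do not say which arrays of different groups belong together. The groups compared also share fewer than 2 replicate numbers. The 10 members had the same direction and the same side of the limits in 455 of 532 values of single genes under the alternatives, 34 passed the limits only under the alternative, 20 only as reported, and 26 changed sign, of which 3 also passed the limits only under the alternative; the cause was not tested. With 1 month against Lin- BM cells, leaving out 1 array gave 0 to 5 members called. The changes then ran from -6.60 to 0.02 for Fos, -1.60 to 1.16 for Jun, -3.05 to 0.37 for Junb, -0.89 to 0.36 for Jund, -3.92 to 2.51 for Egr1, -2.60 to 3.72 for Atf3, -1.67 to 1.12 for Ier2 and -1.02 to 1.00 for Dusp1. Dusp1 was at 0.01 on the shared probes, with and without slide as a block. With 5 months against primary hepatocytes, 1 member was called as reported, 2 with normexp (Fos and Egr1), 5 by the methods' t-test without adjustment and 0 with it, 0 without a filter on dim probes, 0 on the shared probes, with or without slide as a block, and 0 to 6 when 1 array was left out, with Jun from -0.73 to 0.21. With primary hepatocytes against Lin- BM cells, 3 of 6 were called lower as reported, against 3533 of 9297 genes. By the adjusted t-test 1 was, against 1231 genes, and leaving out 1 array put Dusp1 at -1.42 to 0.79. With 5 months against Lin- BM cells, 2 of 6 were called lower as reported, against 3506 of 9297 genes, and 3 with normexp (Fos in addition), against 2565. By the adjusted t-test 1 was, against 1665. Dusp1 was at -0.81 to 1.39 when 1 array was left out, and at -0.23 with quantile normalization. With 1 month against primary hepatocytes, 1 of 6 was called higher without a filter, Ier3, against 3415 of 13341 genes. Dusp1 ran from -0.21 to 0.86 when 1 array was left out. With 5 months against 1 month, 0 to 4 were called when 1 array was left out, with Fos from -4.44 to 2.13, Egr1 from -3.80 to 2.57, Atf3 from -5.10 to 1.17, Ier3 from -3.10 to 0.05 and Dusp1 from -0.04 to 0.60. The count of members over 2-fold higher on B1 than on B2 was 9 in each of the 5 alternatives tried.

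Over all genes, the number called ranged over the alternatives from 4571 to 26463 (15782 as reported) for 1 month against Lin- BM cells, from 0 to 1624 (110) for 5 months against primary hepatocytes, from 2496 to 6461 (6251) for primary hepatocytes and from 3334 to 6309 (6226) for 5 months against Lin- BM cells, from 2 to 4029 (1552) for 1 month against primary hepatocytes and from 14 to 2708 (1573) for 5 months against 1 month. The share of higher among called genes moved from 52.1% to 62.8% with normexp and 71.9% without a filter in the first of these, and from 66.4% to 53.1% on the shared probes in the second. In the last but one it moved from 69.5% to 52.8% with quantile normalization, 49.5% with the values processed by the authors and 84.8% without a filter, and in the last from 34.1% to 46.9% and 53.3% with the first 2 of these and to 52.6% with the percentile taken over all probes. The median of all genes moved from -0.29 to 0.07 and from -0.30 to 0.09 with normexp in the comparisons of primary and 5-month hepatocytes with Lin- BM cells. Signals near background, such as Fos at 17.84 in primary hepatocytes, carry folds that depend on the background correction.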

Other observations

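Stress genes outside the immediate early class were read on the same arrays. Of all genes, 3.92% were over 2-fold higher on B1 than on B2. Heat shock genes stood close together on the 1-month arrays, with a median gap of 0.25 between B1 and B2 and 1 of 14 over 2-fold higher, the inducible chaperone Hspa1a (1.63). Genes of the integrated and ER stress response had a median gap of 0.03, with 3 of 13 over 2-fold higher, among them Ddit4 (2.20) and Ppp1r15a (1.76), while the transcription factor Atf4 had a gap of 0.03 and the ER chaperone Hspa5 one of -0.07. Of 6 growth arrest and p53 response genes, 4 were over 2-fold higher on B1, Gadd45b (4.55), the cell cycle inhibitor Cdkn1a (4.25), Gadd45a (3.41) and Gadd45g (2.69), and the p53 target Mdm2 had a gap of -0.13.

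In 1-month BM-derived hepatocytes against Lin- BM cells, 4 of 14 heat shock genes were called higher and 1 lower by limma, against 28.8% and 26.5% of all genes, so that the share called higher is near the background. Hspb8, a small heat shock protein, was not well above background on either Lin- BM array, and its 1-month level was at least 328-fold higher, Hspb1 was higher by 5.44 (SE 0.31), and the heat shock factor Hsf1 was lower by -1.03 (SE 0.28) in log2 change. Of 13 integrated and ER stress genes 5 were called higher and 0 lower, led by the transcription factor Atf5 (5.90, SE 0.34) and the glutathione-degrading enzyme Chac1 (3.98, SE 0.43), and of the 6 growth arrest genes 1 was called higher, Gadd45g (3.51, SE 0.90). In 5-month against primary hepatocytes 0 genes of these 3 lists were called by limma, with 4, 1 and 3 at an unadjusted p under 0.05 and medians of 0.31, 0.20 and 0.40 against 0.04 over all genes. The share of all genes at that unadjusted limit was not counted.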
